A study of Homo sapiens with 6 samples.

Results

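The genes described here are 38 genes of epithelial junctions, keratin filaments and the epithelial to mesenchymal transition in HK2, an immortalized epithelial cell line from the proximal tubule of the human kidney. They were chosen by symbol for their known roles, and all 38 had a row among the 37202 genes of the deposited table. Total RNA was sequenced from 3 Control libraries, whose genotype is labelled normal, and from 3 NR3C2-OE libraries, from cells that a cationic lipid reagent had transfected with plasmid DNA overexpressing NR3C2, the mineralocorticoid receptor. All 6 libraries came from the same line in the same serum-containing medium. The labels leave out what the Control cells received, when RNA was taken and whether a receptor ligand was present. The libraries are numbered 1 to 3 in each group and nothing says that they were separate cultures, so p-values reflect only library-to-library spread, possibly of technical origin.

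Epithelial cells hold together through adherens junctions, in which cadherins bind catenins and actin, through desmosomes, which anchor keratin filaments, and through tight junctions, in which claudins seal the space between cells. In an epithelial to mesenchymal transition, transcription factors of the SNAI, ZEB and TWIST families repress E-cadherin and other junction genes, while vimentin and N-cadherin become prominent. The proximal tubule of the human kidney is unusual among epithelia because N-cadherin is its main classical cadherin.

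Library totals ran from 77737375 to 132533971 estimated counts. NR3C2 had 5.16 to 6.26 FPKM (fragments per kilobase of transcript, scaled to library size) in Control and 6.95 to 12.1 in NR3C2-OE. In library order the NR3C2-OE values were 12.1, 6.95 and 7.41, with the first library far above the others. The log2 fold change of NR3C2 in the counts was 0.68 (interval 0.03 to 1.32). NR3C2 did not pass edgeR's quasi-likelihood test (adjusted p = 0.486) or the DESeq2 Wald test (adjusted p = 0.125). Of the proximal tubule markers, GGT1 had 16.3 to 56.7 FPKM, while CUBN had at most 0.02 and AQP1 at most 0.066. SLC34A1 had at most 0.143, and SLC5A2 had a mean of 0.779 over all libraries. The markers LRP2, ANPEP, SLC22A6 and HNF4A were looked up and had no row among the deposited genes. The renal lineage factor PAX8 had 123 to 139 FPKM in Control and 145 to 157 in NR3C2-OE. Summed over the 5 genes of each list, markers of endothelium had 0.0226 to 0.15 FPKM. Markers of fibroblasts and pericytes summed to 13.4 to 14.7 in Control and 14.4 to 17.0 in NR3C2-OE. Of these, RGS5 had 7.05 to 9.06 FPKM, LUM 4.39 to 6.62 and DCN 0.973 to 1.92. PDGFRA had at most 0.013 and PDGFRB at most 0.067. The part of these cell types in the results was not tested. In these bulk libraries, fewer cells of a type and less RNA per cell cannot be told apart.

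The line carried epithelial and mesenchymal transcripts side by side. Of the 38 genes, 22 had a mean of 10 FPKM or more over the 6 libraries and 30 had a mean of 1 or more. The 8 below 1 FPKM were CDH1, CLDN7, OCLN, CGN, MARVELD2, PKP3, ESRP1 and TWIST2. Vimentin (VIM) stood highest, with a mean at the 99.7 percentile of all rows, followed by the claudin CLDN1 at 98.7 and the keratin KRT8 at 98.5, whereas E-cadherin (CDH1) stood at 45.1.

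**Figure D1:**
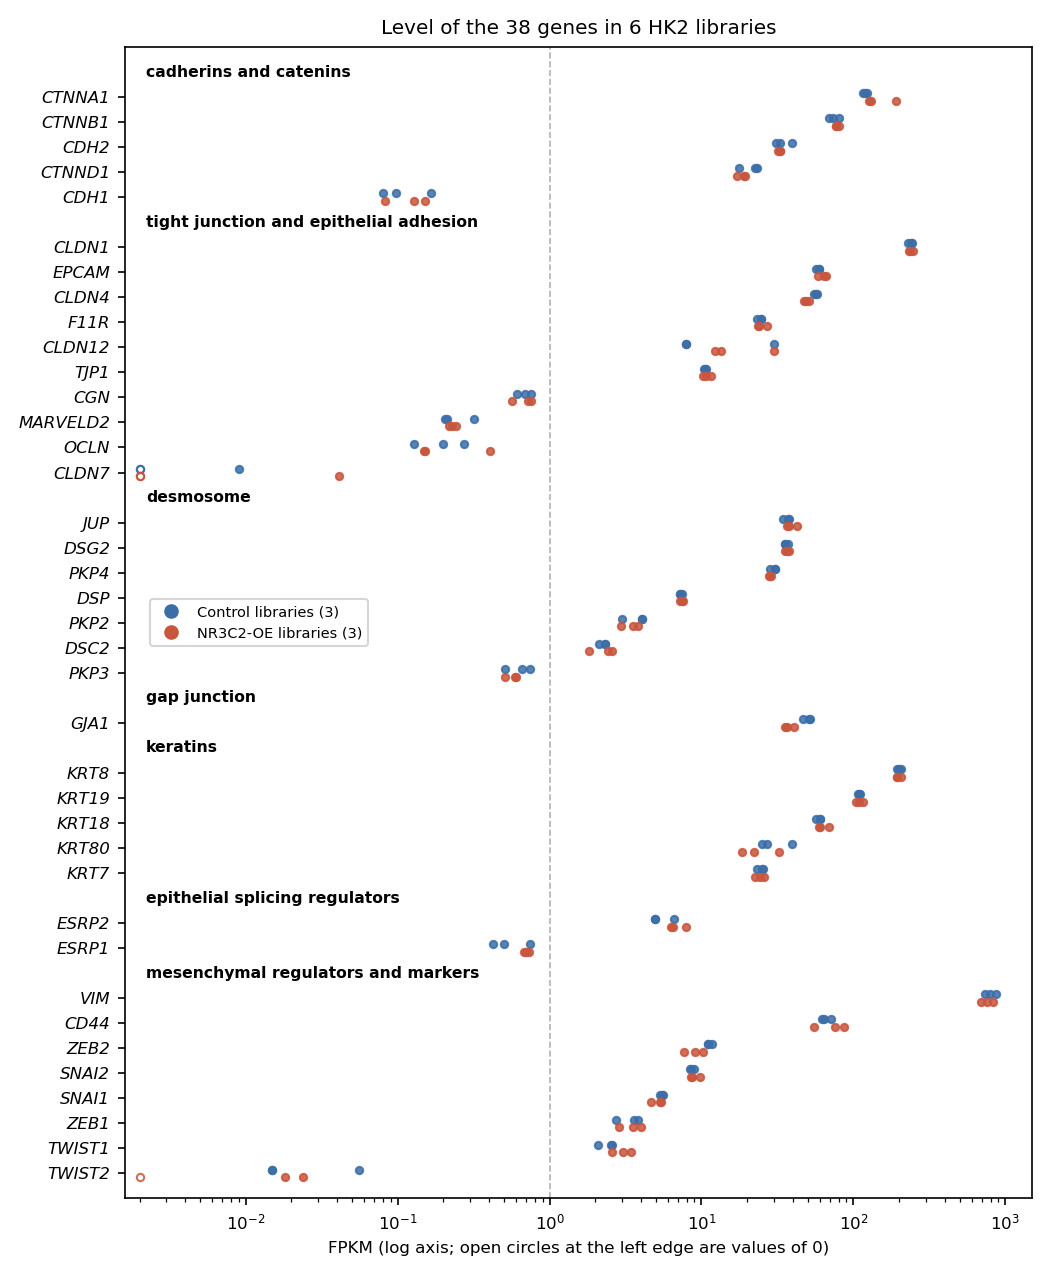
FPKM (log axis) of the 38 genes by role, with 1 point for each of the 3 Control and 3 NR3C2-OE libraries, open circles for values of 0 and a dashed line at 1 FPKM. Most genes lie between 1 and 866 FPKM with both groups close together, and CDH1, CLDN7 and TWIST2 lie far below 1.

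Between the groups, differences were small. Of the 36 members that passed the filter on low counts, 0 were called by edgeR's quasi-likelihood test (Benjamini-Hochberg adjusted p below 0.05 over all 21509 genes tested), beside 0.0279% of all genes. At an unadjusted p below 0.05 there were 4 members, which is 11.1% beside 9.19% of all genes. These were GJA1 and CLDN4, lower in NR3C2-OE (as were 4.76% of all genes), and CD44 and TWIST1, higher (4.43%). The DESeq2 Wald test, which called 1.54% of the genes it gave an adjusted p, called 1 member, GJA1, which was lower (0.905% of all genes). The tests limma-voom and limma-trend on log2(FPKM + 1), which called 0.0232% and 0.0284% of genes, called 0 members. The log2 fold changes of NR3C2-OE over Control were positive for 16 members and negative for 20 (50.2% of all genes were positive), with a median of -0.02 beside 0.0007 over all genes tested. The 95% interval lay within 1.5-fold either way for 24 of 36 members, beside 49.7% of all genes, and within 2-fold for 33, beside 67.5%. The 3 with a wider interval were OCLN, KRT80 and CLDN12. CLDN7 and TWIST2 did not pass the filter and were not tested.

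**Figure D2:**
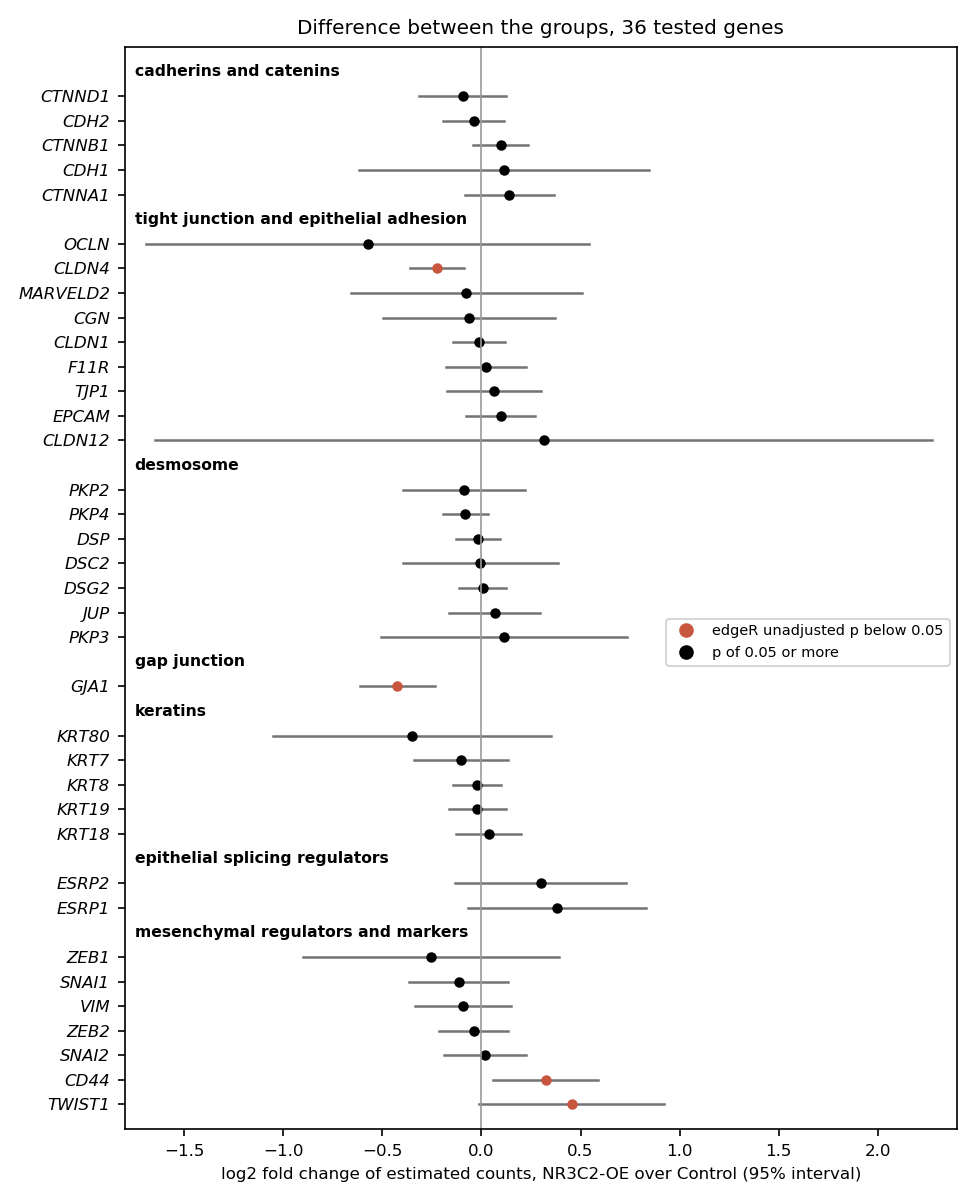
Log2 fold change of estimated counts, NR3C2-OE over Control, with its 95% interval (bars) for the 36 tested genes by role, red where the unadjusted edgeR p is below 0.05. Most points lie near 0, GJA1 (-0.42) and CLDN4 (-0.22) lie below it, and CLDN12 and OCLN have the widest bars.

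Of E-cadherin and N-cadherin, these cells carried mostly N-cadherin, and the kidney cadherin CDH6 stood higher still (78.5 to 99.6 FPKM). CDH1 (ENSG00000039068), which encodes the E-cadherin of most epithelia, had 0.098, 0.08 and 0.165 FPKM in Control (in the order of libraries 1, 2 and 3, as throughout) and 0.128, 0.082 and 0.152 in NR3C2-OE. CDH2 (ENSG00000170558), N-cadherin, had 39.3, 31.0 and 32.9 FPKM in Control and 32.8, 32.0 and 32.9 in NR3C2-OE. The groups overlapped for both genes, and Control library 1 was highest for CDH2. The ratio of CDH2 to CDH1 in FPKM was 200.1 to 399 in Control and 217 to 392 in NR3C2-OE. On the log2 scale it was 8.30 ± 0.56 and 8.12 ± 0.44 (SD, n = 3 each), a difference of -0.17 (exact two-sided permutation test, p = 0.9, where the smallest possible is 0.1). Of the summed FPKM of CDH1, CDH2 and CDH6, CDH1 made up 0.066% to 0.142%.

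The catenins that link cadherins to the cytoskeleton were abundant in all libraries. CTNNA1, alpha-catenin, which connects to actin, had 123, 120 and 116 FPKM in Control and 130, 127 and 190 in NR3C2-OE. Its FPKM did not overlap between the groups, with NR3C2-OE library 3 far above the rest, but its CPM (counts scaled to library totals) did (425 to 483 against 452 to 542). The log2 fold change in the counts was 0.14 (95% interval -0.08 to 0.37). CTNNB1, beta-catenin, which also carries WNT signals to the nucleus, had 74.4 ± 6.17 and 78.2 ± 1.85 FPKM and a log2 fold change of 0.10 (interval -0.04 to 0.24). CTNND1, the catenin that stabilizes cadherins at the membrane, had 21.1 ± 3.04 and 18.6 ± 1.16 FPKM and a log2 fold change of -0.09 (interval -0.31 to 0.13).

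Tight junction genes fell into an abundant and a scarce class. CLDN1 (ENSG00000163347), a sealing claudin, had 229, 243 and 240 FPKM in Control and 247, 235 and 234 in NR3C2-OE. The groups overlapped, and the log2 fold change was -0.01 (interval -0.15 to 0.12). CLDN1 made up 53.5% to 71.1% of the summed FPKM of the 17 claudins with a row. EPCAM, an epithelial adhesion molecule that binds claudins, had 58.7 ± 1.5 and 62.8 ± 3.51 FPKM. F11R, a junctional adhesion molecule, had 24.2 ± 0.79 and 24.9 ± 1.93, and TJP1, a scaffold that ties claudins to actin, had 10.6 ± 0.171 and 10.8 ± 0.588. The log2 fold changes of EPCAM, F11R and TJP1 were 0.10, 0.02 and 0.06, each with an interval that includes 0.

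The scarce class held CGN, cingulin, which links tight junctions to actin (0.564 to 0.757 FPKM), MARVELD2, tricellulin, found where several cells meet (0.204 to 0.318), and OCLN. OCLN, occludin, a membrane protein of the tight junction strand, had 0.129, 0.198 and 0.275 FPKM in Control and 0.405, 0.149 and 0.151 in NR3C2-OE. Its estimated counts were 82, 126 and 200 in Control and 109, 47 and 52 in NR3C2-OE. The log2 fold change in the counts was -0.57 (interval -1.69 to 0.54), while the log2 difference of FPKM + 1 was 0.04, so the direction depended on the measure. CLDN7, a claudin of distal nephron epithelia, had 2 counts in Control library 2, 5 in NR3C2-OE library 2 and 0 in the other 4. For counting error only, a count of 0 allows up to 3 independent fragments. In the libraries with 0, 3 counts would be 0.0226 to 0.0375 CPM. The estimated counts overstate independent fragments, so the limit in these counts is higher.

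CLDN4 (ENSG00000189143), another claudin known from distal nephron epithelia, was lower in every NR3C2-OE library. It had 56.5, 55.0 and 57.4 FPKM in Control and 50.9, 48.7 and 47.3 in NR3C2-OE. The groups did not overlap in FPKM or in CPM. The log2 fold change was -0.22 (SE 0.049, interval -0.36 to -0.09) and did not pass edgeR's test (adjusted p = 0.315). DESeq2 gave an adjusted p of 0.0798, or 0.0491 when run on the genes that edgeR tested, a setting chosen after seeing the data.

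CLDN12, an atypical claudin, varied most between libraries, and not by group. Its FPKM was 30.03, 7.86 and 7.94 in Control and 12.3, 30.2 and 13.5 in NR3C2-OE. Control library 1 and NR3C2-OE library 2 were high and the other 4 low, also in CPM (122 and 120.5 against 26.3 to 50.7). The highest library had 3.84 times the FPKM of the lowest, a ratio at the 98.4 percentile of the 9171 genes with a mean of 5 FPKM or more. The log2 fold change was 0.31 (interval -1.65 to 2.27), and it was 1.45 without Control library 1 and -0.26 without NR3C2-OE library 2. In GENCODE 29, exons of CLDN12 share 347 bases with GTPBP10 and 201 with CDK14 on the same strand. GTPBP10 had 1.78 to 4.07 FPKM and CDK14 3.86 to 4.65, and their part in the result was not tested.

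The gap junction gene GJA1 (ENSG00000152661) had the smallest p of the 36. It encodes a connexin, whose channels pass ions and small molecules between neighbouring cells. Its FPKM was 46.8, 51.5 and 51.1 in Control and 35.6, 36.8 and 40.7 in NR3C2-OE. Every NR3C2-OE library lay below every Control library, in CPM as well (131, 133.5 and 149 against 173, 191 and 191). The mean FPKM was 49.8 ± 2.63 and 37.7 ± 2.70 (SD, n = 3 each), and the log2 fold change in the counts was -0.42 (SE 0.069, interval -0.61 to -0.23), which is 0.745-fold. It did not pass edgeR's test (unadjusted p = 0.000655, adjusted p = 0.252), and DESeq2 called it (adjusted p = 0.0016). Without any 1 library its log2 fold change was -0.48 to -0.39, with an edgeR adjusted p of 0.136 to 0.527. GJA1 and CLDN4 were the 2 members whose groups did not overlap on either scale, 5.6% of 36, where 11.7% of all genes tested did so and 5.5% were lower, which is no larger a share than the background.

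**Figure D3:**
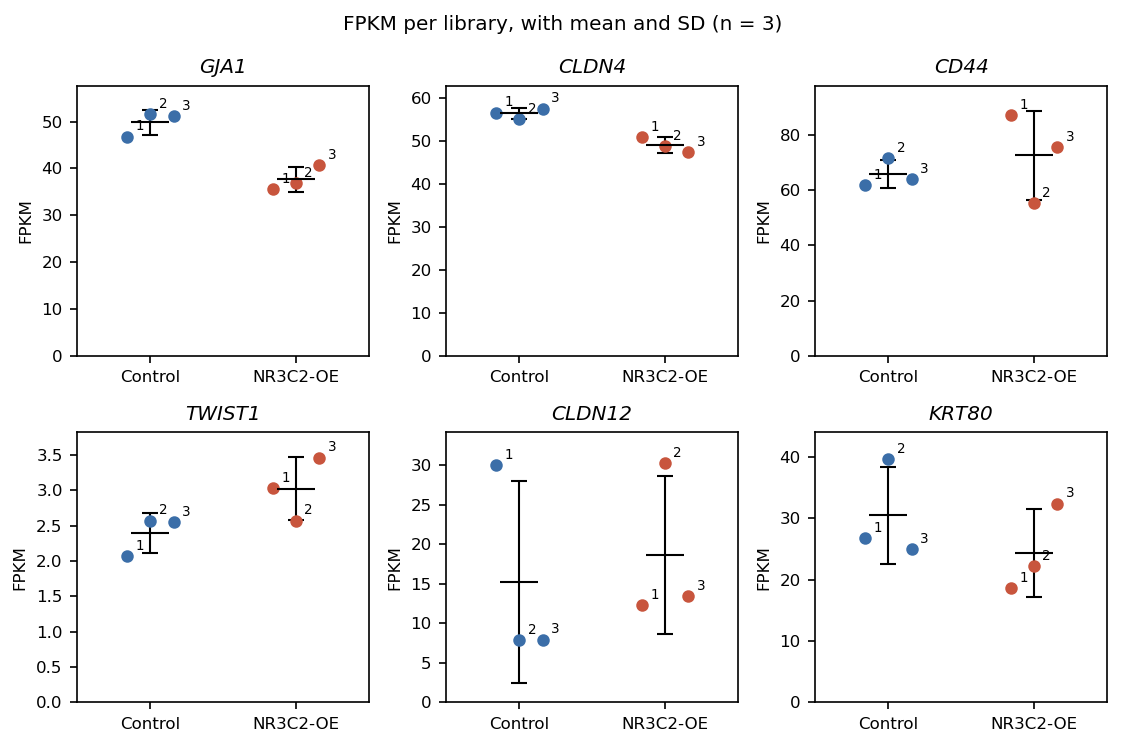
FPKM in each library, numbered 1 to 3, with mean and SD (n = 3), for GJA1, CLDN4, CD44, TWIST1, CLDN12 and KRT80. The NR3C2-OE points of GJA1 (35.6 to 40.7) and CLDN4 (47.3 to 50.9) lie below all Control points, whereas CLDN12 is high in Control library 1 and NR3C2-OE library 2.

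Upstream sequence is shown for GJA1 and CLDN4, which had the smallest p-values among the members, and for the most abundant and the scarcest of the member claudins, CLDN1 and CLDN7. Each is the 250 bases before the transcription start in RefSeq (GRCh38.p14), read 5′ to 3′ on the gene's strand: chr6:121435396-121435645 (+) for GJA1, chr7:73830746-73830995 (+) for CLDN4, chr3:190322447-190322696 (-) for CLDN1 and chr17:7263214-7263463 (-) for CLDN7. Capitals mark the letters TGANTCA of an AP-1 site, where N is any base.
GJA1: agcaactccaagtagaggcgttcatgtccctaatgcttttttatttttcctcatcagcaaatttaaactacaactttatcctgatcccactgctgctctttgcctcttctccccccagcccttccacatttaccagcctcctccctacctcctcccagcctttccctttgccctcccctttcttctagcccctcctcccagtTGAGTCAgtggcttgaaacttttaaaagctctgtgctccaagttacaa
CLDN4: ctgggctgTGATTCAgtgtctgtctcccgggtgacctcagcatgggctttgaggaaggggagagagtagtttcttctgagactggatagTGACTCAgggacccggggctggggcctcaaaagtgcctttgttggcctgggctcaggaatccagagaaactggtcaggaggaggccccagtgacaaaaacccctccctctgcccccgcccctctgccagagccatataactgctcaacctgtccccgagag
CLDN1: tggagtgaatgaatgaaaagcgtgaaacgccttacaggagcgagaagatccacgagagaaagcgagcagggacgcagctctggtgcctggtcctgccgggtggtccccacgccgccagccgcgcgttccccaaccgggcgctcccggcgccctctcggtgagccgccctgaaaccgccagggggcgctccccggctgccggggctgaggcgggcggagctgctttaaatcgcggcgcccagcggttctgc
CLDN7: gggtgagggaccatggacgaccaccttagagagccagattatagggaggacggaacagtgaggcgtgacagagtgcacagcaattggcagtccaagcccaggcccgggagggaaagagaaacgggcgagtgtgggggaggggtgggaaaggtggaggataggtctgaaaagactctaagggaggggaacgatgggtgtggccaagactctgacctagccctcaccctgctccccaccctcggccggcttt
The AP-1 letters TGANTCA, searched on both strands, occurred in GJA1 with the first base at -48 and in CLDN4 at -242 and -161, and in neither CLDN1 nor CLDN7. Promoters of 23 of the 38 genes were in the table used, and GJA1 and CLDN4 were the 2 with these letters, which 6.6% of 35116 promoters held. The E-box CACCTG, letters that SNAI and ZEB factors can bind, was searched on both strands. It occurred in 6 of the 23 (OCLN, TJP1, DSP, DSG2, DSC2 and ZEB1) and in 17.5% of all promoters. CDH1 was not among the 23, nor were EPCAM, KRT18, SNAI1, SNAI2 and TWIST1, so their promoters were not searched. The steroid receptor half-site TGTTCT, also searched on both strands, occurred in 0 of the 23 and in 12.4% of all. The motifs and the genes shown were chosen after the expression values were seen, and a match is not evidence of binding.

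Log2 fold changes of the desmosomal genes were small, and some of these genes varied more between libraries than others. DSG2, a desmosomal cadherin of simple epithelia, had 35.3, 35.5 and 36.9 FPKM in Control and 35.7, 36.6 and 37.5 in NR3C2-OE, and its partner DSC2 had 1.81 to 2.60. The ratio of DSG2 to DSC2 was 13.7 to 20.2. DSC3, outside the 38 and not part of this ratio, had 2.605 to 3.06 FPKM. DSP, desmoplakin, which binds keratin filaments, had 7.33 ± 0.132 and 7.41 ± 0.138 FPKM, and its highest library had only 1.04 times the FPKM of its lowest. JUP, plakoglobin, shared by desmosomes and adherens junctions, had 36.6 ± 1.91 and 39.0 ± 3.37. Of the plakophilins, plaque proteins of the armadillo family, PKP4 had 29.8 ± 1.45 and 28.3 ± 0.434 FPKM, PKP2 3.71 ± 0.613 and 3.44 ± 0.455, and PKP3 0.507 to 0.745. The CPM of PKP4 did not overlap between the groups (119 to 126 against 114 to 117), with a log2 fold change of -0.08 (interval -0.20 to 0.03). The 7 log2 fold changes ran from -0.09 to 0.11, and their median was -0.01. The upper end was PKP3, whose log2 difference of FPKM + 1 was -0.06, so its direction depended on the measure.

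Keratins of simple epithelia were abundant in both groups. KRT8, a type II keratin, had 199.3 ± 6.38 and 197.9 ± 6.20 FPKM, and its type I partner KRT18 had 58.8 ± 1.94 and 63.1 ± 5.49. KRT19, another type I keratin, had 109.2 ± 2.02 and 109.6 ± 5.87, and KRT7, a type II keratin of simple and ductal epithelia, had 24.6 ± 1.29 and 24.2 ± 1.68. The log2 fold changes of these 4 genes lay between -0.10 and 0.04, each with an interval that includes 0. KRT80, a type II keratin, was the variable one, at 26.8, 39.6 and 25.0 FPKM in Control and 18.6, 22.3 and 32.4 in NR3C2-OE. The groups overlapped, with Control library 2 and NR3C2-OE library 3 highest in their groups, and the log2 fold change was -0.35 (interval -1.05 to 0.35). The 5 keratins summed to 421 to 423 FPKM in Control and 404 to 438 in NR3C2-OE, and VIM had 1.59 to 2.05 times that sum. KRT8 and KRT18 share 525 exonic bases on opposite strands in GENCODE 29. Pseudogenes named after KRT8 held 2.12% to 2.45% of their joint counts and those of KRT18 0.804% to 1.65%, so some reads of both may be divided among copies.

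The epithelial splicing regulators ESRP1 and ESRP2, RNA-binding proteins that set epithelial isoforms, both had positive log2 fold changes that did not pass the test. ESRP2 had 6.58, 4.92 and 4.93 FPKM in Control and 6.48, 7.88 and 6.28 in NR3C2-OE, with Control library 1 inside the range of NR3C2-OE. ESRP1 had 0.5, 0.739 and 0.423 FPKM in Control and 0.697, 0.674 and 0.733 in NR3C2-OE, which overlapped, while its CPM did not (1.195 to 1.62 against 1.66 to 1.87). The log2 fold changes were 0.30 (interval -0.13 to 0.73) for ESRP2 and 0.38 (interval -0.07 to 0.83) for ESRP1, with edgeR adjusted p-values of 0.630 and 0.554.

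Mesenchymal regulators did not move as a group. VIM, the intermediate filament of mesenchymal cells, had 866, 739 and 793 FPKM in Control and 755, 695 and 826 in NR3C2-OE. The groups overlapped, and the log2 fold change was -0.09 (interval -0.34 to 0.15). Of the zinc finger repressors of E-cadherin, SNAI1 had 5.48 ± 0.144 and 5.13 ± 0.429 FPKM, and SNAI2 8.62 ± 0.25 and 9.02 ± 0.663. ZEB1, a zinc finger repressor that also carries a homeodomain, had 3.39 ± 0.572 and 3.48 ± 0.584. The log2 fold changes of SNAI1, SNAI2 and ZEB1 were -0.12, 0.02 and -0.25, each with an interval that includes 0. For ZEB1 the log2 difference of FPKM + 1 was 0.03, so its direction depended on the measure. ZEB2, the relative of ZEB1, had 11, 11.6 and 11.1 FPKM in Control and 7.72, 10.3 and 9.12 in NR3C2-OE. Its FPKM was lower in every NR3C2-OE library, but its CPM overlapped (42.0 to 45.0 against 41.2 to 45.4), with a log2 fold change of -0.04 (interval -0.21 to 0.13).

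TWIST1 and CD44 had higher values in part of the NR3C2-OE libraries. TWIST1, a basic helix-loop-helix factor, had 2.08, 2.57 and 2.55 FPKM in Control and 3.03, 2.57 and 3.46 in NR3C2-OE. NR3C2-OE library 2 was level with Control library 2, and the CPM overlapped (3.71 to 5.06 against 4.95 to 6.69). The log2 fold change was 0.45 (interval -0.01 to 0.92, edgeR adjusted p = 0.503). TWIST2, its relative, had 2, 2 and 13 counts in Control and 2, 3 and 0 in NR3C2-OE. CD44, a receptor for hyaluronan, had 61.8, 71.6 and 64.0 FPKM in Control and 87.0, 55.2 and 75.5 in NR3C2-OE, with NR3C2-OE library 2 lowest of all. In CPM the same library was highest (147), and all NR3C2-OE libraries (114 to 147) exceeded Control (103 to 109). The log2 fold change was 0.32 in the counts (interval 0.06 to 0.59, edgeR adjusted p = 0.435) and 0.12 in log2(FPKM + 1).

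For some of these genes the 2 deposited measures moved apart. The ratio of a gene's counts to its FPKM was divided by the median ratio of all genes in the same library. Between the highest and the lowest library it differed by a median of 1.05 times over the 30 members with a mean of 1 FPKM or more. Over 13730 genes the median was 1.09 times. It exceeded 1.2 times for 7 of the 30 members, beside 25.9% of genes, and 1.3 times for 6, beside 15.8%, limits set after seeing the values. The 6 were CD44 (1.85), ZEB1 (1.73), PKP2 (1.45), ZEB2 (1.41), CTNNA1 (1.36) and TWIST1 (1.36). For CD44 the shift lay in NR3C2-OE library 2, and for TWIST1 in Control library 3. For GJA1 and CLDN4 the ratio was steady within 1.005 times, so their values were alike on both scales. Groups did not overlap for 5 members in CPM, 13.9% beside 16.7% of all genes. CLDN4, PKP4 and GJA1 were lower (8.75% of all genes) and ESRP1 and CD44 higher (7.96%). They did not overlap for 5 in FPKM, 13.9% beside 16% of all genes. CLDN4, GJA1 and ZEB2 were lower (6.65% of all genes) and CTNNA1 and TWIST1 higher (9.38%).

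**Figure D4:**
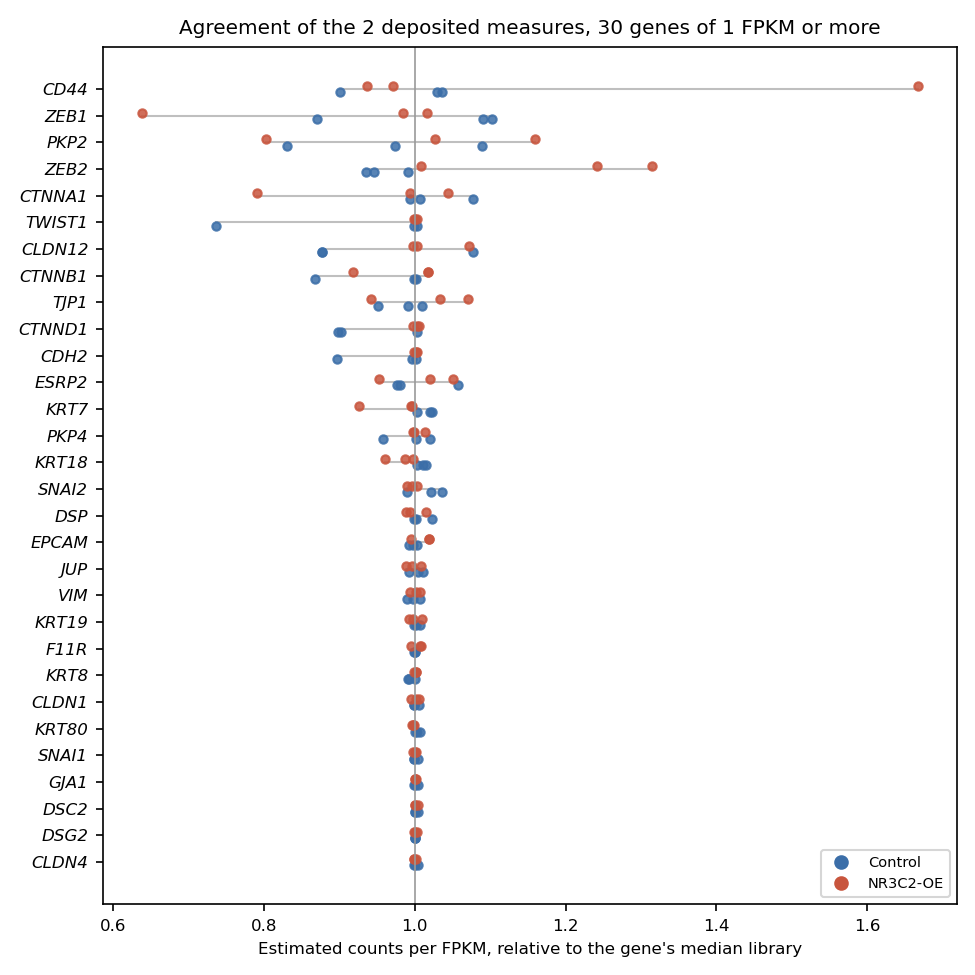
Ratio of estimated counts to FPKM in each library, relative to the gene's median library (1.0), for the 30 genes with a mean of 1 FPKM or more, ordered by spread. CD44 and ZEB1 spread most (1.85 and 1.73 times from lowest to highest), and GJA1, CLDN4, DSG2 and DSC2 are level.

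Other genes of the same structures gave no edgeR call in any of 8 accompanying lists, beside 0.0279% of all genes. At an unadjusted edgeR p below 0.05, each list of 4 to 14 tested genes held 0 or 1 in each direction. Of all genes tested, 4.43% were higher and 4.76% lower at that threshold. Among 11 tested claudins outside the 38, the median log2 fold change was -0.15. The most abundant of them, CLDN11, had 32.8, 31.7 and 31.4 FPKM in Control and 34.0, 109 and 37.5 in NR3C2-OE. NR3C2-OE library 2 alone was far above the rest, and the log2 fold change was 0.95 (SE 0.46, edgeR adjusted p = 0.6). CLDN15, a pore-forming claudin, had a log2 fold change of -0.15. The 14 tight junction scaffold and polarity genes had a median of 0.06, with 1 higher at an unadjusted p below 0.05, PARD6B, a subunit of the PAR polarity complex (8.98 ± 0.124 and 10.3 ± 0.246 FPKM, edgeR adjusted p = 0.349). The 3 most abundant of them, the polarity genes PARD3, PRKCI and PALS1, had log2 fold changes of -0.03, 0.01 and -0.04. Among 8 tested cadherin and nectin genes the median was -0.03, and 1 was lower, VCL, vinculin, which links junctions to actin (102.5 ± 4.21 and 92.5 ± 2.69 FPKM, edgeR adjusted p = 0.354). CDH6 had 80.4 ± 2.04 and 91.4 ± 8.41 FPKM, a log2 fold change of 0.15 (interval -0.04 to 0.34), and the nectin gene NECTIN2 had -0.01. The 4 tested desmosome genes had a median of -0.05, with -0.06 for PERP, -0.04 for EVPL and -0.08 for DSC3. EVPL varied between libraries (1.81 to 4.99 FPKM), and its interval was wide (-1.25 to 1.18). The 6 connexin and pannexin genes had a median of 0.04, with -0.05 for the connexin GJC1, -0.06 for the pannexin PANX1 and 0.10 for the connexin GJD3. GJC1 varied between libraries and had a wide interval (-1.34 to 1.23). Its CPM was 326, 149 and 143 in Control and 139, 322 and 135 in NR3C2-OE, high in Control library 1 and NR3C2-OE library 2, as for CLDN12.

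Of the remaining lists, 7 tested keratins had a median of -0.16, with KRT23 lower at 0.086 to 0.145 FPKM against 0.048 to 0.058 (edgeR adjusted p = 0.489). The 3 most abundant, KRT10, KRT15 and KRT81, had log2 fold changes of -0.16, 0.08 and -0.50, each with an interval that includes 0. The 8 epithelial transcription factors had a median of 0.02, and 1 was higher at an unadjusted p below 0.05, ELF3, an ETS factor of epithelia (39.8 ± 1.11 and 48.7 ± 5.22 FPKM, edgeR adjusted p = 0.429). PAX8 had a log2 fold change of 0.12. The 12 mesenchymal effectors had a median of -0.12, with LOXL2, a collagen crosslinking enzyme, higher (237 ± 6.15 and 270.1 ± 19 FPKM, edgeR adjusted p = 0.492) and TAGLN, an actin-binding protein, lower (43.0 ± 1.1 and 34.3 ± 5.11 FPKM, edgeR adjusted p = 0.408). FN1, fibronectin, had 3678 ± 172 and 3861 ± 95.04 FPKM, above VIM in every library, and SPARC, a matrix protein, had 396 ± 20 and 415 ± 9.43. PARD6B, KRT23 and TAGLN were named after their values were seen.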

How the data were processed

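RNA abundance was measured in 3 Control and 3 NR3C2-OE libraries of HK2 cells, with strand-specific kits and paired-end sequencing per the labels' protocols. The submitters' processing notes name cutadapt 1.2.1, an adapter trimmer. No aligner, counting program, genome build or annotation was named (not given in the sources used here). The authors deposited 1 table with an FPKM value and an estimated count per gene and library. Estimated counts were deposited as whole numbers but were not tallies of single reads (8694 values of 4, against 5772 of 3 and 5504 of 5), so they overstate independent fragments. All 36466 Ensembl identifiers matched the symbol table, and 736 other identifiers stayed in totals and tests.

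Counts were tested in R 4.3.3 with edgeR 4.0.16 (filterByExpr defaults, TMM scaling, glmQLFit and glmQLFTest, group alone), with p-values two-sided and Benjamini-Hochberg adjusted over 21509 genes. Standard errors came from the F statistics, and 95% intervals used 4 residual degrees of freedom, while edgeR's p uses moderated ones, so the 2 can differ near the threshold. DESeq2 1.42.0 and limma 3.58.1 were alternatives, and the edgeR steps were tested on simulated data. Levels are FPKM, mean ± SD over 3 libraries. Members and lists were chosen from textbook roles with earlier results of these data known. Named were every member, the NR3C2 check and, per accompanying list, the 3 genes with the highest mean FPKM and any called gene, with exceptions stated, and 1 gene that the rule selected is not reported here. Exon overlaps and pseudogenes came from GENCODE 29. The labels do not say that the replicate numbers pair the libraries, so the model had no pairing term (correlations are given with the alternatives). No column of per-sample values was unmapped.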

Additional observations from a re-analysis of the deposited data

How the results depend on the processing

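The count of 0 members called in edgeR was also 0 without each library, with the replicate block, with DESeq2 size factors, without a filter, with at least 50 counts in 3 libraries, with counts divided by 4, with limma-voom and with limma-trend on FPKM. It was 1 (GJA1) with the DESeq2 Wald test. Restricting DESeq2 to the genes edgeR tested, a choice made after seeing the data, gave 2 (GJA1 and CLDN4) at a target level of 0.05 for its independent filtering and 1 (GJA1) at 0.1. Over all genes, edgeR called 6, and 5 to 18 without 1 library. The DESeq2 Wald test called 250, and 328 and 317 in the restricted forms, limma-trend on log2(FPKM + 0.1) called 11, and limma-trend on log2(FPKM + 1) without a filter called 0. With the replicate block edgeR called 0. Same-numbered libraries had correlations of deviations of 0.027, 0.016 and 0.004, and differently numbered ones had -0.037 to 0.023. Control library 3 correlated better with NR3C2-OE library 2 (0.023), and Control libraries 1 and 2 best with their own numbers. Values this near 0 do not settle whether the numbers pair the libraries. The labels do not say so, and the numbers were not taken as pairs. The difference in the cadherin ratio was -0.5 to 0.01 without 1 library, -0.19 in CPM and -0.08 with 1 FPKM added. Of 647 member values under 18 other settings, 625 moved by less than the replicate spread, 18 moved by more and 4 passed the threshold (those of GJA1 and CLDN4 under DESeq2). The sign of the log2 fold change was the same in every setting for 16 members. It turned in at least 1 for the other 20, none of them called in any setting. Estimated counts overstate fragments, and 3 libraries per group limit the precision.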

Other observations

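CLDN2, the pore-forming claudin of the proximal tubule, and GGT1, a proximal tubule brush border enzyme, were low in the same Control libraries. CLDN2 had 0.048, 0.032 and 7.22 FPKM in Control, in library order, and 11.9, 11.8 and 8.41 in NR3C2-OE, and GGT1 had 16.3, 17.5 and 45.5 in Control and 56.7, 54.0 and 51.1 in NR3C2-OE. For both genes Control library 3 lay near the NR3C2-OE libraries and apart from the other Control libraries. The log2 fold changes were 1.77 (SE 1.64) for CLDN2 and 1.23 (SE 0.60) for GGT1, with edgeR adjusted p-values of 0.799 and 0.603.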
